A study of Homo sapiens with 6 samples.

Results

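The genes described here encode proteins of the splicing machinery and its main regulators in PC9-BrM3 cells with and without silencing of AKR1B10. They were taken by name from the deposited gene table, as every protein-coding gene whose symbol starts with SRSF, HNRNP, SF3A or SF3B, SNRP, LSM or PRPF. The name rule also takes in genes with other roles, such as LSM10 and LSM11, which act on histone pre-mRNA. All are called splicing genes here. This gave 86 of the 58735 genes in the table, of which 78 had a mean of at least 1 FPKM (fragments counted on a gene, scaled for gene length and library size) over the 6 libraries and entered the test, among 13150 genes tested in all. PC9-BrM3 is a derivative of the human lung adenocarcinoma cell line PC9 that was selected for brain metastasis by repeated passage through immunodeficient mice. It was transduced with a lentiviral shRNA against AKR1B10, an aldo-keto reductase (BrM3-shAKR1B10, 3 libraries, genotype AKR1B10 knockdown), or with a negative control shRNA (BrM3-shNC, 3 libraries, genotype WT in the labels). All 6 libraries came from routine culture of this single derived line, and the silenced arm carries a single shRNA vector. The labels do not say whether the libraries of a group came from separate cultures, so the p-values measure the spread between these libraries, which may be technical.

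Splicing removes introns from the pre-mRNA through the spliceosome, which is built from the small nuclear particles U1, U2, U4, U5 and U6, each an RNA with a ring of Sm or LSm proteins and further proteins of its own. SR proteins and hnRNPs bind the pre-mRNA itself and decide, often against each other, whether an exon is recognised. SF3A and SF3B hold the U2 particle on the branch site, and the PRPF proteins join and remodel the particles up to catalysis.

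Between 16964504 and 18709028 reads per library fell on genes, and of these the splicing genes took between 1.62% and 1.65% in BrM3-shAKR1B10 and between 1.82% and 1.84% in BrM3-shNC. For a gene of 1 kb, 3 reads are worth between 0.164 and 0.177 FPKM. AKR1B10 was at 108.3, 107.2 and 110.2 FPKM in BrM3-shAKR1B10 and at 798.7, 775.0 and 772.0 FPKM in BrM3-shNC, so that the silenced libraries kept 13.9% of the control level. The epithelial markers KRT7, KRT8, KRT18, KRT19, EPCAM and CDH1 summed to between 2986 and 3348 FPKM over the libraries and none was called, whereas the 5 lung lineage markers, NKX2-1 among them, lay at or under 0.677 FPKM in every library. None of the 5 immune or 6 neural and glial markers reached a mean of 1 FPKM. Of the 6 fibroblast markers only COL1A1 did, at 1.22 against 1.98 FPKM and called lower with 3 of the 6 at 0 in all libraries, and of the 4 endothelial markers only CDH5 did, at 1.85 against 1.14 FPKM and called higher. A list of 20 proliferation genes moved with the comparison. Of these, 16 were called lower, their median log2 fold change was -1.06, and their sum was between 610.7 and 613.5 FPKM in BrM3-shAKR1B10 and between 1082 and 1110 FPKM in BrM3-shNC. The part of this shift in the values of the splicing genes was not tested. In such bulk libraries, fewer cells of a kind and less RNA per cell cannot be told apart.

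Most splicing genes lay slightly lower after AKR1B10 silencing, and few by much. Their summed level was between 3435 and 3507 FPKM in the BrM3-shAKR1B10 libraries and between 3981 and 4023 FPKM in the BrM3-shNC libraries, without overlap. A gene was called where limma gave an adjusted p under 0.05 (Benjamini-Hochberg over all 13150 genes) and the log2 fold change of FPKM + 0.1 exceeded 0.5 in size. By this rule 5 of the 78 splicing genes, HNRNPUL1, SNRPF, LSM11, HNRNPL and SNRPB, were lower in BrM3-shAKR1B10, or 6.41% against 7.45% of all genes tested. None was higher, against 5.83% of all genes tested. Their highest log2 fold change was 0.21, so none could pass that fold at an unadjusted p under 0.05 either. With limma's voom on the recovered reads none was called higher. In both directions together 6.41% of the splicing genes were called against 13.3% of all genes tested. The share called lower depended on the libraries and the scaling. It was 2.56% (2 genes) against 7.2% of all genes without BrM3-shNC replicate 3, and 3.85% (3 genes) against 7.3% without BrM3-shAKR1B10 replicate 1. With TPM, quantile normalization and voom it was likewise 3.85%, against 6.64%, 7.42% and 6.47%.

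Most of the splicing genes lay on the lower side. The log2 fold change was below 0 for 62 of the 78 genes (79.5%), against 51.6% of all genes tested, and its median was -0.14 against -0.01. With voom the medians were -0.09 and 0.04, and with quantile normalization -0.09 and 0.01. The changes were small, with 50 of 78 under 0.25 in size and 0 above 1. By the adjusted p alone (limma, Benjamini-Hochberg), 36 genes were lower and 4 higher. That is 46.2% lower against 23.1% of all genes tested, and 5.13% higher against 19.4%. With protein-coding genes alone in the fit, 39 were lower and 4 higher, against 29.7% and 23.2% of all genes in that fit. With voom 35 genes were lower and 7 higher, against 21.1% and 26.9% of all genes, and with TPM 32 were lower and 6 higher, against 19.4% and 22.1%. The 3 values of the groups did not overlap in 43 genes that were lower and in 6 that were higher, or 55.1% and 7.69%, against 29.2% and 25.5% of all genes tested.

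The splicing genes were also measured more precisely than most. Their median level was 34.4 FPKM against 6.04 FPKM over all genes tested, and their median standard error of the log2 fold change was 0.0469 against 0.0699. Among the 7355 genes with a mean of at least 5 FPKM, which hold 74 splicing genes, 35 of these were lower and 4 higher by the adjusted p alone (limma). In that stratum 30.2% of all genes were lower and 23% higher. The plot of level against fold change shows the splicing genes as a band just under 0 at middle and high levels, in which the scatter of all genes is narrow.

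**Figure D1:**
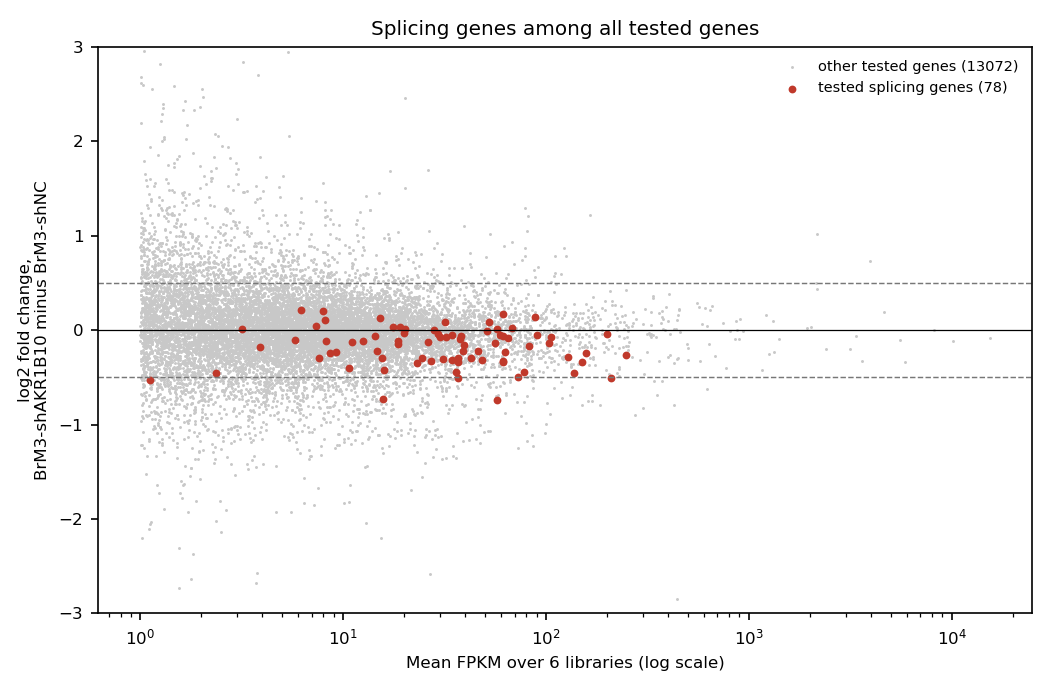
Log2 fold change of FPKM + 0.1 (BrM3-shAKR1B10 minus BrM3-shNC, vertical axis) against the mean FPKM over 6 libraries (horizontal axis, log scale) for the 78 tested splicing genes (red) and all other tested genes (grey, 13 of which lie outside the range of -3 to 3). Dashed lines mark the fold threshold of 0.5 in either direction, and the red points lie mostly between 0 and -0.5.

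The class medians were all below 0, and their order depended on the libraries. The lowest medians were those of the 4 particle proteins of U1 and U2 (-0.37), the 13 LSm proteins (-0.24) and the 22 tested hnRNPs (-0.24). The 7 tested Sm proteins (-0.15) and 11 tested SR proteins (-0.14) lay between, and the 9 SF3A and SF3B factors (-0.07) and 12 tested PRPF proteins (-0.02) were nearest to 0. The median of the PRPF proteins turned to 0.02 with TPM, 0.01 with quantile normalization and 0.03 with voom, while the other medians kept their sign under these scalings, with that of the SF3A and SF3B factors at -0.0038 and that of the Sm proteins at -0.08 under quantile normalization. Without BrM3-shNC replicate 1 the median of the LSm proteins was -0.14, that of the SR proteins -0.21, that of the Sm proteins -0.08 and that of the PRPF proteins 0.01, so that the SR proteins lay below the LSm proteins. Without BrM3-shNC replicate 3 the Sm proteins had -0.25 and the PRPF proteins -0.07, and at a mean of at least 5 FPKM the LSm proteins had -0.13. The PRPF median was also -0.04 without BrM3-shNC replicate 2, -0.03 without BrM3-shAKR1B10 replicate 2 and -0.0058 without BrM3-shAKR1B10 replicate 3. The differences between classes were not tested.

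**Figure D2:**
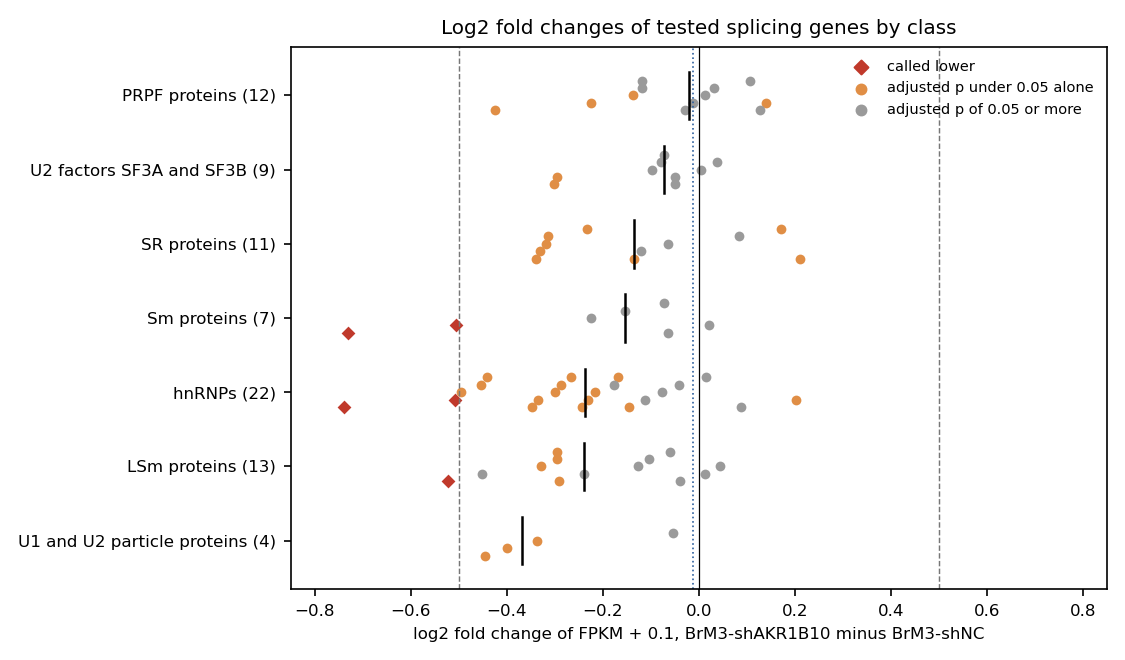
Log2 fold change of FPKM + 0.1 (BrM3-shAKR1B10 minus BrM3-shNC, horizontal axis) of each tested splicing gene by class, with the number tested in brackets, the class median as a black bar and the median of all tested genes as a dotted line. Red diamonds were called lower (5 genes), orange points had an adjusted p under 0.05 from limma but a smaller fold, and grey points had a larger adjusted p. Dashed lines mark a log2 fold change of 0.5 in either direction.

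The hnRNPs, abundant nuclear proteins that coat the pre-mRNA and often repress exons, held 19 of the 62 values below 0. Of the 27 listed, 22 were tested, 2 were called lower (7.45% of all genes tested were) and 15 were lower by the adjusted p alone, with 1 higher (23.1% and 19.4% of all genes tested). HNRNPUL1 (ENSG00000105323, plus strand of chromosome 19, 41262496 to 41307598, GRCh38), a relative of HNRNPU that also acts in the DNA damage response, had the lowest log2 fold change of all splicing genes. It was at 42.9, 41.9 and 43.8 FPKM in BrM3-shAKR1B10 and at 70.3, 72.0 and 72.6 FPKM in BrM3-shNC. Each silenced library thus lay far below each control library, and the mean was 42.9 ± 0.96 against 71.6 ± 1.23 FPKM (SD, n = 3 each), or 59.9% of control. The log2 fold change was -0.74 (95% interval -0.81 to -0.66, limma adjusted p = 2.1e-05), from at least 4949 reads in every library. Leaving out any single library kept it between -0.75 and -0.72. Its relative HNRNPUL2 had -0.15 on the log2 scale, under the fold threshold (limma adjusted p = 0.028). Of the exon bases of HNRNPUL2, 44.15% are shared with HNRNPUL2-BSCL2 on the same strand.

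HNRNPL (ENSG00000104824, minus strand of chromosome 19, 38836388 to 38852347), which binds CA repeats and CA-rich elements near splice sites, also fell. Its values were 29.2, 30.7 and 31.3 FPKM in BrM3-shAKR1B10 and 41.9, 41.9 and 46.1 FPKM in BrM3-shNC, with no overlap. Its log2 fold change was -0.51 (95% interval -0.63 to -0.39, limma adjusted p = 4.2e-04), close to the threshold of 0.5. Without BrM3-shAKR1B10 replicate 1 the log2 fold change was -0.48 and without BrM3-shNC replicate 3 it was -0.46, so that HNRNPL was no longer called, and the same held with TPM (-0.47), quantile normalization (-0.44), voom (-0.46) and a pseudocount of 1 (-0.495). Its paralog HNRNPLL, known for the switch of CD45 exons in lymphocytes, pointed the other way at a lower level. HNRNPLL was at 8.92, 8.41 and 8.31 FPKM in BrM3-shAKR1B10 and at 7.56, 7.15 and 7.53 FPKM in BrM3-shNC, which gives a log2 fold change of 0.20 (limma adjusted p = 0.013), under the fold threshold. It was the only hnRNP higher by the adjusted p alone, and the difference between the paralogs was not tested.

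The most abundant hnRNP, HNRNPA1, which competes with SR proteins at many exons, was at 221.8, 228.3 and 224.3 FPKM in BrM3-shAKR1B10 and at 268.9, 276.3 and 265.5 FPKM in BrM3-shNC. All silenced values lay below all control values, at 83.2% of control, but the log2 fold change of -0.27 (95% interval -0.34 to -0.19, limma adjusted p = 7.8e-04) was under the threshold. Several other hnRNPs, named here after their values were seen, came nearer to it. HNRNPM, which binds GU-rich sequence, was at 58.7, 61.7 and 61.5 FPKM against 86.8, 83.3 and 86.5 FPKM, a log2 fold change of -0.50 (-0.4952 before rounding, limma adjusted p = 1.0e-04). It was just short of being called as reported, and it was called without BrM3-shAKR1B10 replicate 2 (-0.51), BrM3-shAKR1B10 replicate 3 (-0.51) or BrM3-shNC replicate 2 (-0.51). HNRNPA2B1 was at 112.8, 116.8 and 117.7 against 160.2, 159.0 and 156.7 FPKM (log2 fold change -0.45), and HNRNPH3 at 29.3, 32.6 and 29.6 against 42.4, 41.6 and 40.2 FPKM (-0.44). Further hnRNPs with an adjusted p under 0.05 were HNRNPR, HNRNPAB, HNRNPD, HNRNPA3, HNRNPK, HNRNPH1, HNRNPU and HNRNPC, with log2 fold changes between -0.35 and -0.17. By contrast HNRNPF, the second most abundant at 197.3 against 203.1 FPKM, had a log2 fold change of -0.04 (limma adjusted p = 0.32), and HNRNPH2 had 0.01.

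The Sm proteins form a ring of 7 different proteins, SNRPB, SNRPD1, SNRPD2, SNRPD3, SNRPE, SNRPF and SNRPG, around the RNA of every spliceosomal particle except U6. Of these 7 genes, 2 were called lower, beside 7.45% of all genes tested, and 5 were not. SNRPF (ENSG00000139343, plus strand of chromosome 12, 95858928 to 95903828) was at 12.2, 11.7 and 11.6 FPKM in BrM3-shAKR1B10 and at 20.6, 20.8 and 17.8 FPKM in BrM3-shNC. The third control library was nearest to the silenced ones and still lay well above them. The log2 fold change was -0.73 (95% interval -0.89 to -0.57, limma adjusted p = 3.1e-04) and stayed within -0.80 and -0.69 in the 6 fits that omit a single library. HNRNPUL1 and SNRPF were the splicing genes called in each of these 6 fits.

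SNRPB (ENSG00000125835, minus strand of chromosome 20, 2461634 to 2470853), which encodes the SmB and SmB′ proteins, was at 168.5, 178.9 and 172.3 FPKM in BrM3-shAKR1B10 and at 221.5, 250.2 and 268.0 FPKM in BrM3-shNC. The groups did not overlap, but the control libraries spread widely, with an SD of 23.5 FPKM against 5.29 FPKM. The log2 fold change of -0.50 (-0.5049 before rounding, 95% interval -0.67 to -0.34, limma adjusted p = 0.0017) lay just past the threshold. It was -0.485 without BrM3-shAKR1B10 replicate 1, -0.49 without BrM3-shNC replicate 2 and -0.44 without BrM3-shNC replicate 3, and SNRPB was not called in these fits. Nor was it called with TPM (-0.47), quantile normalization (-0.43) or voom (-0.45). In the annotation, 20.03% of its exon bases are shared with AL049650.1 on the same strand.

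None of the other 5 ring genes passed the adjusted p. SNRPE, the Sm gene with the highest log2 fold change, was at 68.2, 69.5 and 66.7 FPKM in BrM3-shAKR1B10 and at 72.2, 68.1 and 61.5 FPKM in BrM3-shNC, with overlapping groups (log2 fold change 0.02, 95% interval -0.12 to 0.17). SNRPD1, SNRPG, SNRPD2 and SNRPD3 had log2 fold changes of -0.23, -0.15, -0.07 and -0.06, with limma adjusted p-values between 0.074 and 0.30. FPKM within the ring ranged widely for proteins that assemble in equal number, but FPKM divides by all annotated exon bases of a gene. These were 4909 for SNRPD1 and 1795 for SNRPG. In BrM3-shNC, SNRPD1 had 1590, 1216 and 1357 reads and SNRPG had 1515, 1346 and 1129. The order of these genes by FPKM thus depends on annotated length. In BrM3-shNC the mean FPKM was 246.6 for SNRPB, 108.5 for SNRPD2, 67.3 for SNRPE, 63.0 for SNRPD3, 41.6 for SNRPG, 19.7 for SNRPF and 15.8 for SNRPD1. Only SNRPE and SNRPD3 overlapped as neighbours in that order. SNRPN, the eighth gene of this class, was listed at 0 in all 6 libraries, as was SNURF, which shares its transcripts, and the annotation gives 33.58% of the exon bases of SNRPN to other genes on the same strand.

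LSm proteins form related rings, with LSM2 to LSM8 on U6 in the nucleus, LSM1 to LSM7 on mRNA under decay in the cytoplasm, and LSM10 with LSM11 in the U7 particle that cuts histone pre-mRNA. Of the 13 genes, 1 was called lower, a share near the 7.45% of all genes tested. By the adjusted p alone 5 were lower, against 23.1% of all genes tested, and 0 were higher at the adjusted or at the unadjusted p. LSM11 (ENSG00000155858, plus strand of chromosome 5, 157743695 to 157760709) was the lowest of all tested splicing genes in level, at 0.928, 0.925 and 0.848 FPKM in BrM3-shAKR1B10 and 1.25, 1.37 and 1.39 FPKM in BrM3-shNC. These values rest on 99 to 110 and on 151 to 167 reads, and the groups did not overlap. The log2 fold change was -0.52 with a wide 95% interval of -0.87 to -0.17 (limma adjusted p = 0.028). It remained called without BrM3-shNC replicate 1 (adjusted p = 0.045 from limma) and not without any other single library. The adjusted p was 0.058 without BrM3-shAKR1B10 replicate 1, 0.057 without BrM3-shAKR1B10 replicate 2, 0.069 without BrM3-shAKR1B10 replicate 3, 0.083 without BrM3-shNC replicate 2 and 0.084 without BrM3-shNC replicate 3 (limma). With a pseudocount of 1 the log2 fold change was -0.30, under the threshold. Its partner in the U7 particle, LSM10, was at 10.52 against 11.5 FPKM, a log2 fold change of -0.13 with overlapping groups.

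LSM4, the most abundant LSm gene, was at 52.3, 53.5 and 57.9 FPKM in BrM3-shAKR1B10 and at 64.5, 70.2 and 71.0 FPKM in BrM3-shNC, which gives a log2 fold change of -0.33 (limma adjusted p = 0.0037) without overlap. LSM2, LSM3 and LSM12 had values between -0.30 and -0.29, each with an adjusted p under 0.05 from limma. LSM6, named after its values were seen, was at 2.54, 1.69 and 1.74 against 2.73, 2.84 and 2.57 FPKM (log2 fold change -0.45, limma adjusted p = 0.058). Its first silenced library stood near the controls, and without BrM3-shAKR1B10 replicate 1 the log2 fold change was -0.63 and LSM6 was called (adjusted p = 0.0052 from limma). LSM8 (-0.10) and LSM1 (0.04), the proteins that set the nuclear and the cytoplasmic ring apart, had no adjusted p under 0.05. LSM1 was at 7.64, 7.77 and 7.01 FPKM in BrM3-shAKR1B10 and at 6.80, 7.94 and 7.003 FPKM in BrM3-shNC, and 38.46% of its exon bases are shared with genes on the opposite strand.

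The proteins particular to U1 and U2 had the lowest median of the classes, although none was called and the class holds 4 genes. SNRPC, the U1 protein at the 5′ splice site, was at 66.7, 65.5 and 66.0 FPKM in BrM3-shAKR1B10 and at 94.5, 86.4 and 89.2 FPKM in BrM3-shNC, or 73.4% of control. Its log2 fold change was -0.45 (95% interval -0.54 to -0.35, limma adjusted p = 2.6e-04). SNRPA1 of the U2 particle (-0.40) and SNRPA of the U1 particle (-0.34) also had groups that did not overlap and an adjusted p under 0.05 from limma. SNRPB2, the partner of SNRPA1 in U2, was at 33.7, 34.7 and 33.4 FPKM against 36.3, 35.8 and 33.6 FPKM, with overlapping groups and a log2 fold change of -0.05 (limma adjusted p = 0.32). With quantile normalization its sign turned (0.03).

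The SF3A and SF3B factors, which anchor U2 at the branch site, had 2 genes of 9 lower by the adjusted p alone, a share near the 23.1% of all genes tested. SF3A1 was at 27.5, 27.3 and 28.8 FPKM in BrM3-shAKR1B10 and at 35.1, 33.9 and 34.0 FPKM in BrM3-shNC, which gives a log2 fold change of -0.30 (95% interval -0.38 to -0.22, limma adjusted p = 8.2e-04). SF3A3 had -0.29 (limma adjusted p = 0.0083), and the remaining subunit SF3A2 was at 18.5, 16.7 and 18.3 against 15.7, 17.8 and 18.6 FPKM, with overlapping groups (0.04). SF3A2 had 3134 exon bases, 12.70% of them shared with the opposite strand, and its sign turned to -0.03 without BrM3-shNC replicate 1. The 6 SF3B genes lay between -0.10 for SF3B1, which contacts the branch site and is a recurrent target of mutation in cancer, and 0.0046 for SF3B3. SF3B5, the most abundant, was at 85.01, 93.4 and 88.4 FPKM against 91.5, 96.3 and 88.5 FPKM (log2 fold change -0.05, 95% interval -0.17 to 0.06). No SF3B gene passed the adjusted p, and the difference from the SF3A genes was not tested.

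Among the PRPF proteins, which act from particle assembly to catalysis, 3 of 12 were lower and 1 was higher by the adjusted p alone, beside 23.1% and 19.4% of all genes tested, and none was called. The lower share was near the background. PRPF38A, needed to activate the assembled spliceosome, was the lowest, at 13.2, 13.7 and 13.8 FPKM in BrM3-shAKR1B10 and 18.9, 18.0 and 17.7 FPKM in BrM3-shNC. The groups lay clearly apart, with a log2 fold change of -0.42 (95% interval -0.52 to -0.33, limma adjusted p = 3.3e-04). PRPF19, the ubiquitin ligase at the core of the PRPF19 complex and the most abundant of the class, was at 99.7, 96.3 and 98.4 FPKM against 105.5, 111.2 and 106.9 FPKM (-0.14, limma adjusted p = 0.016). The adjusted p of PRPF19 was 0.099 with TPM (-0.10), 0.062 with voom (-0.09), 0.054 with the replicate block, 0.059 without BrM3-shAKR1B10 replicate 2 and 0.052 without BrM3-shNC replicate 2 (limma). PRPF6, which bridges U5 to the U4/U6 particle, was higher in every silenced library, at 93.3, 92.2 and 91.5 FPKM against 81.1, 85.1 and 85.4 FPKM (0.14, limma adjusted p = 0.013). PRPF8, the scaffold of the catalytic center, was at 50.1, 51.7 and 50.5 FPKM against 51.4, 51.7 and 50.4 FPKM, and its log2 fold change of -0.01 had a 95% interval of -0.08 to 0.06. Of the U4/U6 proteins, PRPF31, with 31.99% of its exon bases shared with AC245052.4 and TFPT on the opposite strand, had -0.23 (limma adjusted p = 0.020), while PRPF4 had -0.12 and PRPF3 had 0.13, both with overlapping groups.

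SR proteins bind exonic enhancers and recruit U1 and U2, and their mRNAs are known for regulation through their own conserved unproductive exons, which a gene-level table cannot separate. None was called, and by the adjusted p alone 6 of the 11 tested were lower and 2 were higher, against 23.1% and 19.4% of all genes tested, so that the higher share was near the background. SRSF2 was at 55.2, 55.9 and 51.3 FPKM in BrM3-shAKR1B10 and at 72.4, 65.2 and 68.1 FPKM in BrM3-shNC, or 79.0% of control (log2 fold change -0.34, 95% interval -0.46 to -0.22, limma adjusted p = 0.0026). Of its exon bases, 36.66% are shared with the opposite strand, where MFSD11 lies. SRSF1, SRSF3 and SRSF7 lay close together at -0.33, -0.32 and -0.31, each without overlap of the groups, and 56.59% of the exon bases of SRSF1 are shared with AC015813.2 on the same strand. SRSF4 (-0.23) and SRSF6 (-0.14) completed the lower ones.

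The SR genes higher by the adjusted p alone were SRSF5 and SRSF8. SRSF5 was at 63.8, 65.8 and 65.7 FPKM in BrM3-shAKR1B10 and at 58.1, 58.8 and 56.6 FPKM in BrM3-shNC (log2 fold change 0.17, 95% interval 0.10 to 0.24, limma adjusted p = 0.0047). SRSF8, an intronless relative of SRSF2, was at 6.44, 6.68 and 6.83 FPKM against 5.91, 5.71 and 5.58 FPKM (0.21, limma adjusted p = 0.011), the highest log2 fold change of all tested splicing genes. All silenced libraries lay above all control libraries for both genes, at 112.6% and 116.0% of control. Because SRSF8 and SRSF2 are alike in sequence, how their reads were divided is uncertain.

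**Figure D3:**
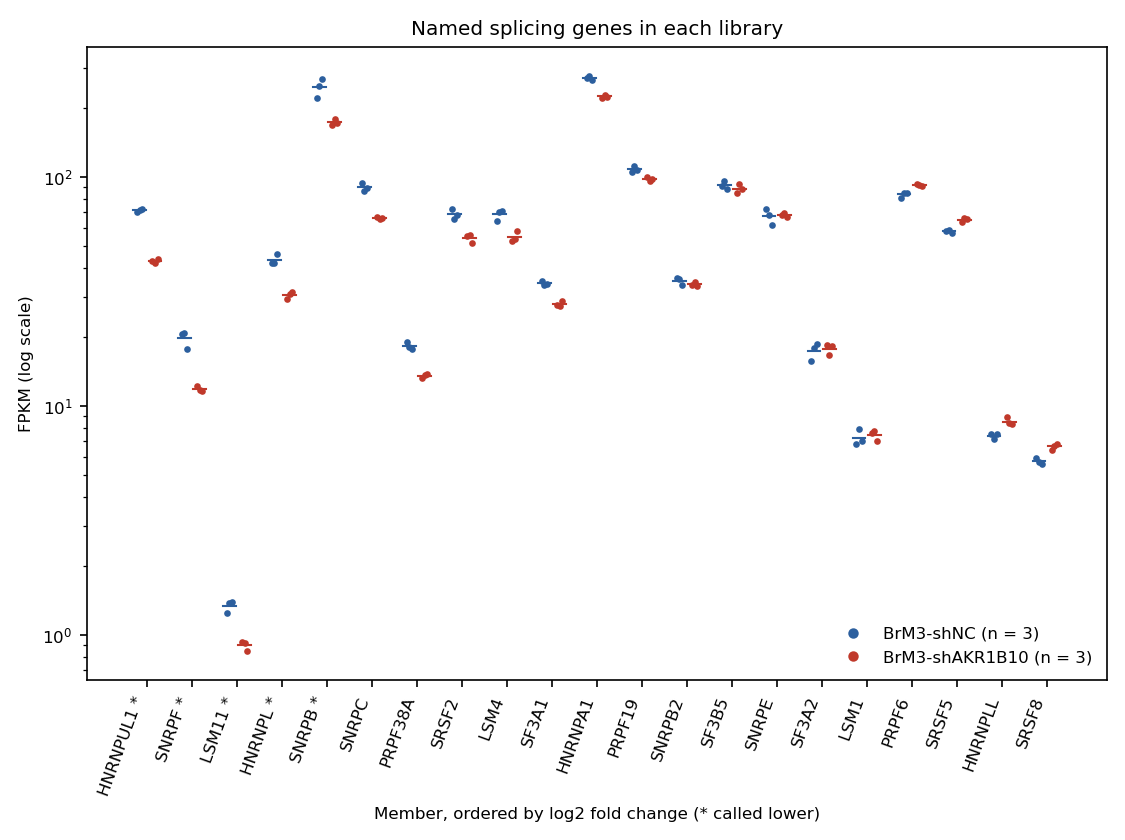
FPKM in each library (vertical axis, log scale) of the 21 splicing genes named by the rule, ordered from the lowest to the highest log2 fold change. Blue points are the 3 BrM3-shNC libraries, red points the 3 BrM3-shAKR1B10 libraries and bars the group means. Asterisks mark the 5 called genes, whose red points all lie below the blue ones, while SNRPB2, SF3B5, SNRPE, SF3A2 and LSM1 overlap.

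The plot of values by library spans these genes from LSM11, near 1 FPKM, to HNRNPA1, whose mean over the 6 libraries was 247.5 FPKM, and shows that the points within a group lie close together beside the levels of different genes. In the heat map of all 78 tested genes, the upper rows change sign between the control and the silenced libraries in nearly every column. The first BrM3-shNC library stood above the other control libraries for LSM5, SNRPD1 and SF3B6, and the third BrM3-shNC library lay below the mean for SNRPG.

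**Figure D4:**
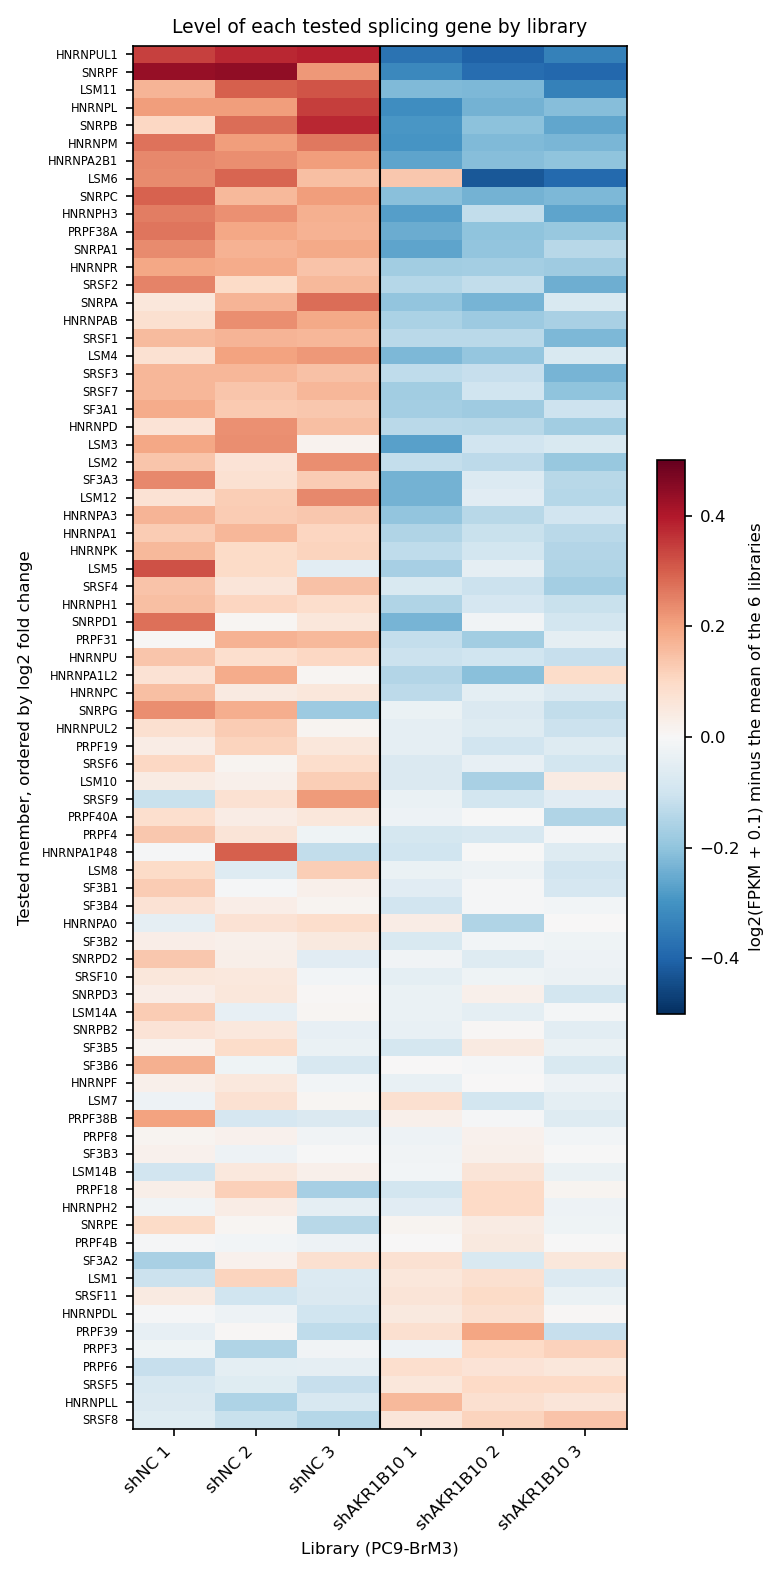
log2(FPKM + 0.1) minus the mean over the 6 libraries (color) for each of the 78 tested splicing genes (rows, ordered by log2 fold change) in the 3 BrM3-shNC and 3 BrM3-shAKR1B10 libraries (columns). The rows from HNRNPUL1 down to SRSF4 are mostly red in the control and blue in the silenced libraries, with LSM6 in the first silenced library and LSM5 in the third control library as exceptions, and the last 4 rows, PRPF6, SRSF5, HNRNPLL and SRSF8, show the opposite.

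The other 8 genes had a mean under 1 FPKM and were not tested. PRPF40B was at 0.815, 0.786 and 0.943 FPKM in BrM3-shAKR1B10 and at 0.831, 0.933 and 0.894 FPKM in BrM3-shNC. HNRNPUL2-BSCL2, a readthrough gene, and SRSF12 had at most 2 reads in any library. All exon bases of HNRNPUL2-BSCL2 are shared with BSCL2 and HNRNPUL2 on the same strand, so its level is uncertain. HNRNPCL1, HNRNPCL2, HNRNPCL3, HNRNPCL4 and SNRPN were listed at 0 in all 6 libraries. HNRNPA1L2 and HNRNPA1P48, which were tested, are copies of HNRNPA1, so their values (log2 fold changes -0.18 and -0.11, groups overlapping) are uncertain.

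Promoter sequence is shown for the 5 called genes. The stretches come from the RefSeq promoter table on GRCh38.p14, end at the base before the gene start in the deposited table, are written 5′ to 3′ on the strand of the gene, and carry in capitals the motif matches described after them.
HNRNPUL1, chr19:41262307-41262495, plus strand: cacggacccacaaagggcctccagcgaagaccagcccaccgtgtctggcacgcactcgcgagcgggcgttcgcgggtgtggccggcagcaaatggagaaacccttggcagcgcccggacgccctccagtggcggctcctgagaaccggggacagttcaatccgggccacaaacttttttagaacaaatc
SNRPF, chr12:95858702-95858927, plus strand: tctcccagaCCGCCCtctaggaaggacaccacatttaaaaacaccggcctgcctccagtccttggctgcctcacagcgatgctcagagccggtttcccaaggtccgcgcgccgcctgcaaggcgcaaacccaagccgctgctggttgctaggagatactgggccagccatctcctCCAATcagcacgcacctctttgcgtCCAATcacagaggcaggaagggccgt
LSM11, chr5:157743462-157743694, plus strand: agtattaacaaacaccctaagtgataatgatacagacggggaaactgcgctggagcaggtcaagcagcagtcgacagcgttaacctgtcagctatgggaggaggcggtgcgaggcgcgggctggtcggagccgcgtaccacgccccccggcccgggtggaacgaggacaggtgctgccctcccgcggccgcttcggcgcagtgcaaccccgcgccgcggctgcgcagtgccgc
HNRNPL, chr19:38852348-38852597, minus strand: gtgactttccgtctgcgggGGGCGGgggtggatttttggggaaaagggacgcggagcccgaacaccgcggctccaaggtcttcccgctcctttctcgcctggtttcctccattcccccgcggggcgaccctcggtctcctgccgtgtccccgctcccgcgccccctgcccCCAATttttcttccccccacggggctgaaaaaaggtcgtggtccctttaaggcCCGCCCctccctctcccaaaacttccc
SNRPB, chr20:2470854-2471039, minus strand: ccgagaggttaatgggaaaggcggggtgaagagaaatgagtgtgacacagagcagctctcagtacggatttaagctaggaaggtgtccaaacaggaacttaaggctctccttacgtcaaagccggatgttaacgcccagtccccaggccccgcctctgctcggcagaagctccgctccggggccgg

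The capitals mark the GC box (GGGCGG) and the CCAAT box (CCAAT), each searched on both strands, so that CCGCCC and ATTGG also count. HNRNPL and SNRPF hold both motifs in the printed stretch, and HNRNPUL1, LSM11 and SNRPB hold none of the motifs searched there. Shares were counted in the 250 bases before the RefSeq start for 66 of the 78 tested genes, which were matched by symbol, and for all 27305 promoters of the table. The GC box stood in 39 of the 66 (59.1%) against 42.3% of all promoters, HNRNPUL1 and LSM11 among them through bases outside the printed stretch, and CCAAT in 30 (45.5%) against 33.0%. The ETS motif CCGGAAG stood in 21 (31.8%) against 8.82%, and among the called genes in that of SNRPB. The E-box CACGTG, read by MYC and other factors, stood in 7 (10.6%) against 6.49%. The E2F motifs TTTCCCGC and TTTGGCGC, familiar from cell cycle promoters, stood in 2 (3.03%, against 1.42%) and 1 (1.52%, against 0.553%). The TATA box TATAAA stood in 6 (9.09%) against 11.1%, the NRF1 motif GCATGCGC in 3 (4.55%) against 2.81% and the YY1 motif AAGATGGC in 1 (1.52%) against 1.37%. Median GC content was 61.4% against 58.0%. These are matches of letters in windows of different base composition, and no test was made. The promoters of the background were not limited to expressed or protein-coding genes, so the shares cannot be read as particular to splicing genes.

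In the rest of the splicing pathway 3 genes fell and most lay slightly lower. Of 122 further splicing genes, 121 were tested, 3 were called lower (2.48%, against 7.45% of all genes tested) and 0 higher (against 5.83%). By the adjusted p alone (limma) 52 were lower and 9 higher, or 43% and 7.44%, against 23.1% and 19.4%. Their highest log2 fold change was 0.48, so that 0 of them could pass the fold threshold upward at an unadjusted p under 0.05. Voom called 1 higher, MBNL2. Their median log2 fold change was -0.13, with 94 below 0. PHF5A, a small subunit of SF3B, was at 18.8, 16.7 and 16.3 FPKM in BrM3-shAKR1B10 and at 27.7, 26.6 and 26.5 FPKM in BrM3-shNC (log2 fold change -0.64, limma adjusted p = 3.2e-04). It fell while the SF3B genes themselves lay near 0, and the difference was not tested. PPIH, the cyclophilin bound to PRPF3 and PRPF4 in the U4/U6 particle, was at 11.3, 11.3 and 10.97 FPKM against 17.1, 16.5 and 17.3 FPKM (-0.60, limma adjusted p = 5.5e-05). PDCD7, a U11/U12 protein of the minor spliceosome, was at 5.64, 5.45 and 5.43 FPKM against 8.23, 7.65 and 7.96 FPKM (-0.52, limma adjusted p = 2.5e-04), and it was not called with TPM (-0.49), voom (-0.48), a pseudocount of 1 (-0.46) or without BrM3-shNC replicate 1 (-0.496).

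By group, the 29 other particle proteins had a median of -0.16 with 14 lower and 1 higher by the adjusted p alone (23.1% and 19.4% of all genes tested, also for the groups that follow), the higher gene being ZRSR2 (0.35) of the minor spliceosome. The 30 proteins of the PRPF19 complex and the catalytic steps had -0.11 with 11 lower and 1 higher. The 9 exon junction proteins, which mark spliced mRNA, had -0.15 with 6 lower and 1 higher. Of the 32 tested regulators of splice site choice, 13 were lower and 3 higher, with a median of -0.08. Among them the repressor PTBP1 was at 87.2 against 110.1 FPKM (-0.34), and the epithelial regulators ESRP1 (-0.36) and ESRP2 (0.28) had opposite signs, each without overlap of the groups.

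The machinery that builds Sm rings and the kinases that act on SR proteins were measured as well. Of 15 assembly genes, 7 were lower and 1 higher by the adjusted p alone, with a median of -0.21. SNUPN, the import adaptor of assembled particles, was at 3.57, 3.70 and 3.79 FPKM against 5.10, 5.06 and 5.49 FPKM (-0.49, limma adjusted p = 6.9e-04), and GEMIN2 of the SMN complex had -0.46 (limma adjusted p = 0.018). Neither was called as reported. SNUPN was called lower without BrM3-shAKR1B10 replicate 3, BrM3-shNC replicate 1 or BrM3-shNC replicate 2 (-0.51, -0.50 and -0.51), and GEMIN2 without BrM3-shAKR1B10 replicate 2 (-0.55) or BrM3-shNC replicate 2 (-0.52). The adjusted p of GEMIN2 was 0.053 without BrM3-shAKR1B10 replicate 3, 0.056 without BrM3-shNC replicate 1 and 0.052 without BrM3-shNC replicate 3 (limma). With the replicate block it was 0.057 (limma). SMN1 and SMN2 are near-identical copies whose reads cannot be assigned with certainty, and SMN1 spread from 5.10 to 12.8 FPKM over the libraries. The 6 kinases of SR proteins had both signs. SRPK1, which acts in the cytoplasm, was at 15.8, 16.97 and 15.7 FPKM against 21.4, 19.6 and 20.3 FPKM (-0.33, limma adjusted p = 0.0020). CLK1 and CLK4, which act in the nucleus, had 0.37 and 0.38 (limma adjusted p = 0.0018 and 0.0064), with CLK1 at 12.7, 12.01 and 11.7 FPKM against 9.87, 8.94 and 9.34 FPKM. SRPK2, CLK2 and CLK3 had an adjusted p of 0.38 or more from limma.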

How the data were processed

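Poly-T selected mRNA of 6 libraries was sequenced as paired-end reads. Per the labels and the methods of the study, the authors aligned reads with HISAT2 2.0.5, counted them per gene with featureCounts 1.5.0-p3 and deposited FPKM values, with replicates not pooled. The genome build and the strand setting were not given in the sources used here, and all 58735 genes match GENCODE 29 (GRCh38) in identifier, position and strand. Whole reads could be recovered for at least 99.9694% of values per library (tolerance 0.01), and the library sizes used for the deposited FPKM lay between 16911164 and 18350584. Antisense neighbours cannot be told apart without strand.

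Groups and replicate numbers came from the sample titles. The test was a linear model in limma 3.58.1 (R 4.3.3; lmFit, eBayes with a mean-variance trend) of log2(FPKM + 0.1) over the 13150 genes with a mean of at least 1 FPKM, with Benjamini-Hochberg adjustment. Fold changes on this scale understate those of low genes. Called genes had an adjusted p under 0.05 together with a log2 fold change beyond 0.5 in either direction. Intervals are 95% intervals of that fit, and depth limits (3 reads) cover counting error only. The script was tested on simulated data.

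The genes and lists were chosen with earlier results of these data known. Genes named with values per library were every called splicing gene, in each class the lowest and highest log2 fold change and the highest level, and every called gene among the other splicing genes, and others were named after their values were seen. Alternatives were other pseudocounts (1 and 0.01), other filters (none, or a mean of at least 5 FPKM), TPM, quantile normalization, no variance trend, voom on the recovered reads, protein-coding genes alone, the adjusted p alone, a log2 fold change above 1, the replicate number as a block, and each library left out in turn. Overlaps were counted on GENCODE 29 exons and promoters taken from RefSeq (GRCh38.p14) with Python 3.11.15, pandas 2.3.3 and numpy 2.4.6, and plots were drawn with matplotlib 3.10.9.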

Additional observations from a re-analysis of the deposited data

How the results depend on the processing

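No splicing gene was called higher under any alternative except the adjusted p alone, which gave 36 lower and 4 higher (3044 and 2548 of all genes, 52 and 9 of the other splicing genes). The number called lower was 5 as reported, 3 with a pseudocount of 1 (497 of all genes higher), 3 with TPM, 3 with quantile normalization, 3 with voom, and 0 at a log2 fold change above 1, where 205 of all genes were lower and 168 higher and 0 of the other splicing genes were lower. At a mean of at least 5 FPKM it was 4, with 532 of all genes lower and 290 higher. Leaving out each library gave between 2 and 5 splicing genes lower, and between 3 and 6 lower and 0 and 1 higher among the other splicing genes. The lowest count, 2, came without BrM3-shNC replicate 3 and held HNRNPUL1 and SNRPF. TPM, quantile normalization and voom each called 1 of the other splicing genes higher, MBNL2. HNRNPUL1 and SNRPF were called under every alternative except the log2 fold change above 1. Signs turned for SNRPB2 with quantile normalization (0.028) and for SF3B5 with voom (0.00065), and over the libraries left out SF3A2 ranged from -0.0323 to 0.0881 and SNRPE from -0.0417 to 0.0745. The cause of these differences was not tested. The numbers of the replicates did not pair the libraries (correlations of deviations -0.016, 0.0039 and 0.0038). A block for the replicate number left 967 lower and 719 higher among all genes, and 4 splicing genes were lower, without LSM11 (adjusted p = 0.073 from limma). Among the 5 splicing genes called, depth limits LSM11 most, with 99 to 167 reads per library.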

Other observations

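The annotation holds 193 pseudogenes named after the families of splicing genes. Of these, 122 were listed at 0 in all 6 libraries and 15 had a mean of at least 1 FPKM. How reads that match both a copy and its parent were counted is not given in the sources used here. Few reads on a copy therefore do not show that its parent lost none. The 74 pseudogenes of HNRNPA1 held between 2.02% and 2.52% as many reads as HNRNPA1, and the copies of SNRPF at most 0.459% as many as SNRPF. LSM12P1, the copy of LSM12, held between 34.9% and 59.1% as many reads as LSM12, so that the level of LSM12 is less certain.

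Of the 15 tested pseudogenes, 1 was called. SNRPEP4 was at 15.6, 15.1 and 10.9 FPKM in BrM3-shAKR1B10 and at 7.81, 9.11 and 5.70 FPKM in BrM3-shNC, which gives a log2 fold change of 0.88 (limma adjusted p = 0.013, Benjamini-Hochberg over all genes tested). It was called higher, with the groups apart, when any 1 library was left out (log2 fold change between 0.69 and 1.04), while its parent SNRPE had a log2 fold change of 0.02. All pseudogenes of SNRPE together held between 31 and 82 reads per library, so the difference rests on few reads.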
